A study of Mus musculus with 16 samples.

Results

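The renin-angiotensin system is the enzyme cascade that makes angiotensin peptides, together with the receptors that read them. Its 9 genes described here were chosen by name, as rows of the count table whose Ensembl identifiers carry the symbols Ren1, Agt, Ace, Agtr1a, Agtr1b, Mas1, Atp6ap2, Enpep and Mme in GENCODE M21, of 55414 genes in the table. All 9 were found. The tissue was kidney cortex of wild-type male C57BL/6J mice, with no transgene or deletion in any group, and the sources used here give no age. There were 4 groups of 4 polyadenylated-RNA libraries: sedentary mice, and mice forced to run on a treadmill for 40 minutes at 70% capacity over 24 h (1 day), 1 week or 2 weeks. Libraries are numbered within a group, but no label ties each to its own mouse, and the p-values below therefore reflect library-to-library spread that may be technical. Whether 24 h means 1 day of running or the time from run to death is not stated, and neither is the time from the last run in the other groups. The titles also carry a letter that no label explains, one for sedentary and another for every running library, so whatever it marks and running cannot be told apart.

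Renin is a protease that juxtaglomerular cells, which sit in the wall of the arteriole entering each glomerulus, release into the blood. It cuts angiotensin I from the end of angiotensinogen, and angiotensin-converting enzyme (Ace) trims angiotensin I to angiotensin II, which raises blood pressure and sodium retention through the AT1 receptor. In the kidney the brush border of the proximal tubule carries further peptidases, aminopeptidase A (Enpep) and neprilysin (Mme), that turn angiotensins into other peptides. One of these products, angiotensin-(1-7), is the ligand of Mas1. C57BL/6 mice carry the renin gene Ren1 and lack Ren2, and rodents have a pair of AT1 receptor genes, Agtr1a and Agtr1b.

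The substrate and the catalytic sites can be read in the coding sequences, taken from the GENCODE M21 transcripts on GRCm38. The stretch of Agt shown first, chr8:124564435-124564494 on the minus strand, holds in capitals the 10 codons of angiotensin I, the peptide that renin releases. The next 4 stretches hold in capitals the 5 codons of the zinc-binding HEXXH motif (histidine, glutamate, any residue, any residue, histidine), which was searched in the reading frame of all 9 members and matched only in the 3 metallopeptidases. Ace has 2 matches, at codon 395 (capitals at chr11:105972910-105972924, plus strand) and codon 993 (chr11:105985094-105985108), where Enpep has 1 at codon 385 (chr3:129309772-129309786, minus strand, with flanking bases that cross a splice junction) and Mme 1 at codon 584 (chr3:63362021-63362035, plus strand).
Agt, angiotensin I: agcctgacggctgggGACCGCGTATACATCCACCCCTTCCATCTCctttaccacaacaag
Ace, codon 395: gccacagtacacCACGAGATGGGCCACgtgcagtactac
Ace, codon 993: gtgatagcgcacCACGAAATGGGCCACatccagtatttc
Enpep, codon 385: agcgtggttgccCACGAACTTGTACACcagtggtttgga
Mme, codon 584: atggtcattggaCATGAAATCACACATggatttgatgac

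The AT1 receptor genes are shown because reads of near-identical copies can be miscounted. The first 90 coding bases of Agtr1a (chr13:30380954-30381043, plus strand) and Agtr1b (chr3:20316351-20316440, minus strand) follow, with the 8 bases that differ in capitals. Over the whole coding sequence of 1077 bases, 99 bases differed (90.81% identity). No 75-base window of the Agtr1b transcript (0 of 2073) also occurs in an Agtr1a transcript, and 33 of 2098 windows of 50 bases do (1.573%). No source used here gives the read length, and a small exchange of reads between the pair was not tested.
Agtr1a: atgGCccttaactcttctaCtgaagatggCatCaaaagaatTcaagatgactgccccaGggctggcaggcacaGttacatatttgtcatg
Agtr1b: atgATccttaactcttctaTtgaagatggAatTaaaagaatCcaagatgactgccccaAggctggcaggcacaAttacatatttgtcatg

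Libraries held 39766260 to 66852397 counts in genes. Levels are given as CPM, counts scaled to a common library size, after TMM, a correction for library composition. Of 55414 genes, 16126 passed the filter on low counts and were tested together, among them 8 of the 9 members: Agtr1b did not pass. By markers, 13 proximal tubule genes summed to between 20599 and 27785 CPM per library and 4 medulla genes to between 72.4 and 156 CPM. These sums cannot test the cortex label, since the lists differ in number and abundance of genes. Of the 4 medulla genes Slc14a2 varied most, from 0.533 to 58.2 CPM over the 16 libraries, and Fxyd4 least, from 21.2 to 36.1 CPM. Replicate 1 of the 1 week group stood apart in 1 way: the adrenal cortex genes Cyp11b1 and Cyp21a1 had 22 and 50 counts there and 0 in the other 15 libraries. On the first principal component (17.6% of variance) replicate 3 of the 24 h group and replicate 3 of the 1 week group lay at one end and replicate 2 of the 2 week group as far out at the other, and on the second (12.8%) replicate 1 of the 2 week group lay farthest out. Without both replicates 3, 1 of 8 members, Mme, kept an unadjusted p under 0.05 at 24 h (0.0331). At 2 weeks Mas1 had an unadjusted p of 0.0184 and Agtr1a of 0.0232 without replicate 2, and Mas1 of 0.0251 without replicate 1.

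Across all 16 libraries the cascade's transcripts spanned a wide range of levels, which are compared between genes per kilobase of annotated exon. Ace was highest (mean 67.9 CPM per kb ± 12.1, SD, n = 16), followed by Agt (64.9 ± 11.7) and Ren1 (52.3 ± 18.4). Then came Atp6ap2 at 26.0 ± 2.18 and Enpep at 22.1 ± 3.33 CPM per kb. Agtr1a (13.1 ± 1.78), Mme (8.81 ± 1.58) and Mas1 (0.551 ± 0.172) had the lowest levels per kb among the tested members. The values depend on the length used. Per kilobase of the longest transcript these 3 stood at 16.6, 12.6 and 0.602 CPM per kb, and the order of the tested members was the same. In the sedentary group the lowest library of each member lay above the highest library of the next in this order. The exception was Agt and Ren1, whose ranges overlapped (52.7 to 69.9 and 35.9 to 60.6 CPM per kb). In the 24 h group the first 3 stood in another order, Ren1 at 65.9, Agt at 65.0 and Ace at 59.5 CPM per kb, but their ranges overlapped. The order of group means at 1 week and at 2 weeks was that of the sedentary group, with Ace, Agt and Ren1 overlapping as neighbours in both, Atp6ap2 and Enpep in both, and Agtr1a and Mme at 2 weeks.

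**Figure D1:**
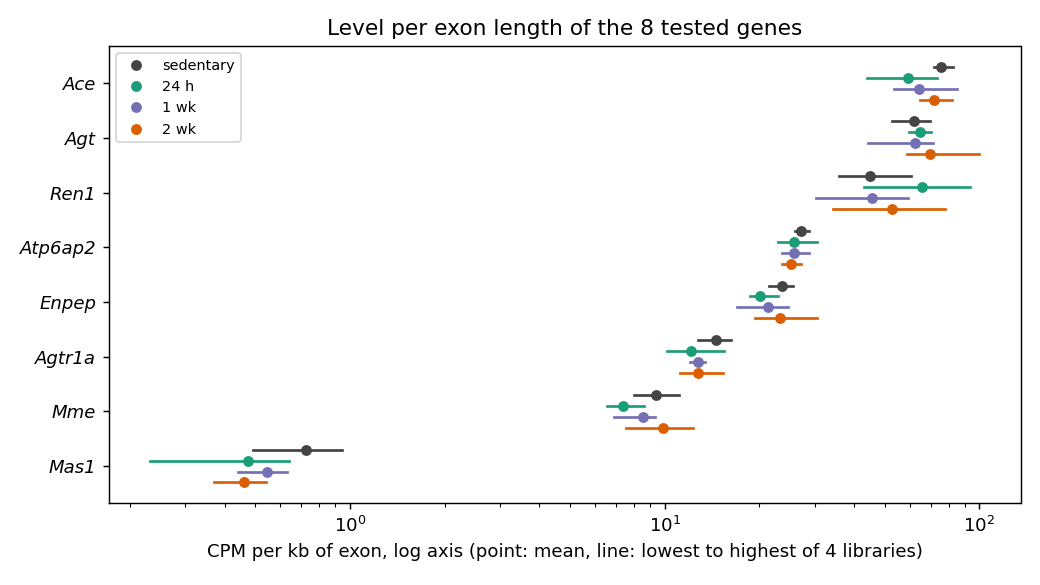
Level per kilobase of exon (CPM per kb, log axis) of the 8 tested members in each group; points are means and lines run from the lowest to the highest of 4 libraries. Ace, Agt and Ren1 lie together at the top, and Mas1 is lowest in every group, with means from 0.46 to 0.726 CPM per kb.

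No member differed between groups in edgeR's quasi-likelihood test after Benjamini-Hochberg adjustment over all tested genes. The smallest adjusted p of a member was 0.468 against sedentary mice at 24 h (Mme), 0.911 at 1 week and 0.604 at 2 weeks (Mas1 in the last). In edgeR the share of all 16126 genes with an adjusted p under 0.05 was 0% in each comparison with sedentary mice, 0% with all running mice pooled, 0% for 1 week against 24 h, 0% for 2 weeks against 1 week, and 0.0124% (2 genes) both for 2 weeks against 24 h and for any difference among the 4 groups. DESeq2 and limma-voom with quality weights also called 0 members in these 8 comparisons, although over all genes they called more: 86 and 49 at 24 h, 15 and 6 at 1 week, 34 and 6 at 2 weeks against sedentary mice, and 163 and 33 among the 4 groups. The smallest adjusted p of any member in any comparison and setting tried was 0.101.

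At an unadjusted p under 0.05, edgeR gave 4 of the 8 tested members lower at 24 h than in sedentary mice and 0 higher, where 4.43% of all genes were lower and 4.49% higher. The 4 were Ace, Mme, Agtr1a and Mas1, and DESeq2 gave the same number (4) and limma-voom 5. The count rests on few libraries: it was 1 without 24 h replicate 3 or without sedentary replicate 1, 2 or 4, then 2 without 24 h replicate 4, and 3 without 24 h replicate 1 or 2. At 1 week 0 of 8 members passed this threshold in edgeR (3.72% of all genes were lower and 2.33% higher), with 0 by DESeq2 and 4 lower by limma-voom. All shares of genes here are edgeR's. Shares at this threshold were not computed for DESeq2 or limma-voom, so their member counts cannot be set against all genes. At 2 weeks 1 of 8 was lower, Mas1, and 0 higher (3.24% and 4.02% of all genes). With all running mice pooled, 2 of 8 were lower, Agtr1a and Mas1, and 0 higher (4.06% and 3.92%). The median log2 fold change of the tested members was -0.25 at 24 h, -0.15 at 1 week and -0.04 at 2 weeks, beside medians over all genes of -0.01, 0.00 and 0.01. These comparisons share the sedentary libraries, and the members were chosen with earlier results of these data known. The counts of members beside the shares of all genes are therefore a description and not a test.

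Each tested member's running libraries overlapped its sedentary libraries at each time, where 7.21% of all genes did not overlap at 24 h, 4.22% at 1 week and 4.91% at 2 weeks. In bulk tissue fewer cells of a type and less RNA per cell cannot be told apart.

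**Figure D2:**
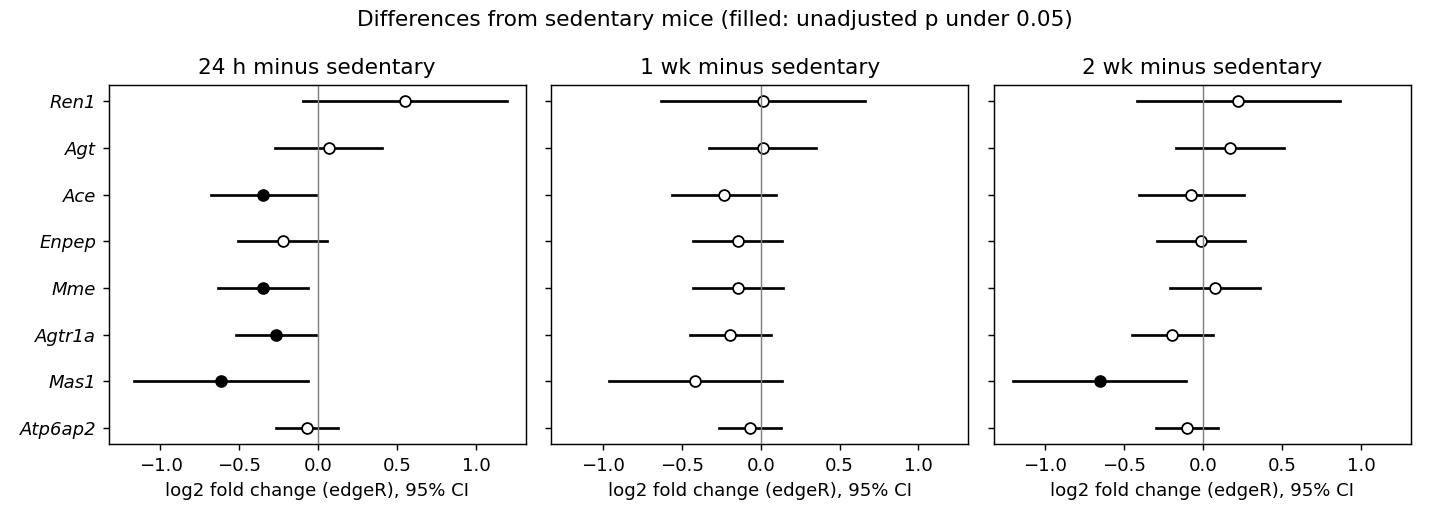
Log2 fold change (edgeR) with its 95% confidence interval for the 8 tested members at 24 h, 1 week and 2 weeks against sedentary mice; filled points have an unadjusted p under 0.05. The filled points are Ace, Mme, Agtr1a and Mas1 at 24 h and Mas1 at 2 weeks, and the interval of Ren1 is the widest in each panel.

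Ren1 encodes renin, whose supply sets the pace of the cascade (chr1:133350510-133360325, plus strand). Its sedentary libraries 1 to 4 held 74.9, 100.4, 59.5 and 63.9 CPM, and the 24 h libraries 155, 81.7, 129 and 71.4 CPM. At 1 week they held 98.2, 90.5, 62.9 and 50.3 CPM, and at 2 weeks 129, 56.7, 61.3 and 101 CPM. Libraries 1 and 3 of the 24 h group and libraries 1 and 4 of the 2 week group were above every sedentary library (the last by 101.4 against 100.4 CPM), and the other 24 h libraries lay within the sedentary range. Ren1 was thus higher on average at 24 h (109 ± 39.4 against 74.7 ± 18.3 CPM, SD, n = 4), with a log2 fold change of 0.55 ± 0.30 (SE) and a 95% interval from -0.10 to 1.19. That difference had an unadjusted p of 0.0902 and an adjusted p of 0.624 (edgeR's quasi-likelihood test). Without 24 h replicate 4 the log2 fold change was 0.71 with an unadjusted p of 0.0319, without sedentary replicate 2 it was 0.73 with 0.0377, and without 24 h replicate 1 it was 0.33 with 0.289. At 1 week the log2 fold change was 0.02 ± 0.30 and at 2 weeks 0.22 ± 0.30, so changes of up to 0.66 and 0.87 upward lay within the 95% intervals. By the SD of log2 CPM over the 16 libraries Ren1 was the most variable of the tested members (0.48, the 87.4th percentile of all tested genes), and its levels spanned a 3.08-fold range, where those of Mas1 spanned 4.07-fold.

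In 2 libraries of the 24 h group the podocyte and proximal tubule marker lists stood apart together with Ren1 and Ace. The 24 h libraries 1 and 3, whose Ren1 levels were the highest and the third highest of the 16 libraries, had the 2 highest sums of 6 podocyte markers (308 and 310 CPM, where the sedentary libraries ran from 209 to 263). They also had the 2 lowest sums of 13 proximal tubule markers (21650 and 20599 CPM, sedentary 22319 to 25360). The 9 smooth muscle and mesangium markers, which include genes of the renin cell's neighbours in the vessel wall, summed to 138 and 182 CPM there (sedentary 107 to 131). This list did not set both apart: 24 h library 4 and 1 week library 3, with Ren1 at 71.4 and 62.9 CPM, had sums of 137 and 139 CPM. No marker of these 3 lists was at 0 in 24 h libraries 1 and 3, but the most abundant genes of a list weigh most in its sum. The sums therefore do not show that each marker of a list moved. The library with the second highest Ren1, 2 week replicate 1, did not share the podocyte and tubule pattern: its proximal tubule sum was the highest of the 16 (27785 CPM) and its podocyte sum, 254 CPM, lay within the sedentary range. Its smooth muscle and mesangium sum, 152 CPM, was above the sedentary range. Counts of markers at an unadjusted p under 0.05 in edgeR are given beside the shares over all genes. At 24 h (4.49% of all genes higher, 4.43% lower) 2 of 9 smooth muscle and mesangium markers, 1 of 7 distal nephron and 1 of 6 immune markers were higher, and 1 of 4 medulla markers was lower. Among podocyte markers 0 of 6 and among proximal tubule markers 0 of 13 passed this threshold then. At 1 week (2.33% higher, 3.72% lower) 7 of 7 endothelial markers were lower, with sums of 162 to 203 CPM against 214 to 256 in sedentary libraries. In the same comparison 3 of 6 immune and 2 of 9 smooth muscle and mesangium markers were lower, and 2 of 7 distal nephron markers, 1 of 9 smooth muscle and mesangium markers and the 1 tested adrenal marker, Star, were higher. Star had 57 counts in 1 week replicate 1, the library with adrenal transcripts, and 13 to 15 in the rest of that group, within the sedentary 5 to 22. At 2 weeks (4.02% higher, 3.24% lower) 5 of 5 blood markers were higher (677 to 1632 CPM against 336 to 593), as were 4 of 7 distal nephron markers, 1 of 9 smooth muscle and mesangium markers and 1 of 4 tested macula densa and thick limb markers. Lower there were 2 of 7 endothelial, 1 of 6 immune and 1 of 13 proximal tubule markers. The part of tissue composition in the levels of Ren1, Ace and the other members was not tested.

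Akr1b7, an aldo-keto reductase known as a marker of renin-producing cells, differed little: its log2 fold change was -0.04 ± 0.20 at 24 h, -0.04 ± 0.20 at 1 week and 0.01 ± 0.20 at 2 weeks. Of the list of 23 renin cell and renin control genes, 22 were tested. At an unadjusted p under 0.05, 1 of the 22 was higher at 24 h, 2 were lower at 1 week, and 2 were higher and 1 lower at 2 weeks. The shares over all genes were 4.49% higher at 24 h, 3.72% lower at 1 week, and 4.02% higher and 3.24% lower at 2 weeks. These few counts were not tested against the shares. The gene higher at 24 h was Gja4, which encodes a connexin of vessel walls (0.35 ± 0.15, adjusted p = 0.495, edgeR's quasi-likelihood test). The pair at 1 week was Gucy1a1, a subunit of the nitric oxide receptor, at -0.54 ± 0.19, and the cAMP-responsive factor Creb1 at -0.33 ± 0.13. At 2 weeks Gucy1a1 was again lower (-0.47 ± 0.19), and Nos1 and Ptges were higher. Nos1, the neuronal nitric oxide synthase that marks macula densa cells, had 19 to 31 counts per sedentary library and 22 to 65 at 2 weeks (0.99 ± 0.36 on the log2 scale, adjusted p = 0.544, edgeR). Ptges, a synthase of prostaglandin E2, which is known to stimulate renin release, held 19.0 ± 1.81 CPM in sedentary and 27.0 ± 6.27 CPM in 2 week libraries (log2 fold change 0.51 ± 0.13, unadjusted p = 0.000996, adjusted p = 0.357, edgeR). None of these passed adjustment, and Ptgs2, the other macula densa enzyme of the list, was too low to be tested.

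Agt encodes angiotensinogen, the substrate (chr8:124556534-124569706, minus strand). Its sedentary libraries held 117, 121, 99.7 and 132 CPM, and the 24 h libraries 113, 113, 132 and 132 CPM. The 1 week libraries held 128, 135, 128 and 83.5 CPM, and those at 2 weeks 114, 111, 115 and 189 CPM. All but 2 of the 12 running libraries lay between 111 and 135 CPM: replicate 4 of the 1 week group was the lowest of the 16 libraries and replicate 4 of the 2 week group the highest. The log2 fold changes against sedentary mice were 0.07 ± 0.16 at 24 h, 0.01 ± 0.16 at 1 week and 0.17 ± 0.16 at 2 weeks. Without replicate 4 of the 2 week group the last became -0.05.

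Ace encodes the enzyme with the 2 zinc-binding sites shown above (chr11:105967945-105989964, plus strand). In sedentary libraries it stood at 396, 389.8, 378 and 437 CPM, and in the 24 h libraries at 259, 388, 232 and 379 CPM. At 1 week it stood at 331, 300.0, 282 and 448 CPM, and at 2 weeks at 349, 397, 343 and 431 CPM. The 24 h libraries formed a low pair (1 and 3) and a pair within the sedentary range, and 3 of the 4 libraries at 1 week were below every sedentary library. The log2 fold change was -0.35 ± 0.16 at 24 h (unadjusted p = 0.0408, adjusted p = 0.539, edgeR's quasi-likelihood test), -0.23 ± 0.16 at 1 week and -0.07 ± 0.16 at 2 weeks. Without 24 h replicate 3 the first was -0.23 with an unadjusted p of 0.16, and without 24 h replicate 1 it was -0.27 with an unadjusted p of 0.131, and its p was also above 0.05 without sedentary replicate 1, 2 or 4. At 1 week, leaving out replicate 4 gave -0.39 with an unadjusted p of 0.0157. An antisense gene, Gm11651, overlaps exons of Ace, and the counting's strand setting is not given. Gm11651 held 1 to 12 counts per library beside 10698 to 26788 for Ace. Counting without strand could drop reads of the shared bases from both genes, so these counts cannot show whether Ace lost reads.

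Enpep encodes aminopeptidase A, which removes the first residue of angiotensin II (chr3:129269175-129332720, minus strand). Its levels ran from 101 to 120.3 CPM in sedentary libraries, 88.0 to 108 at 24 h, 79.9 to 116 at 1 week and 91.3 to 143 at 2 weeks. Of the 24 h libraries, 3 (88.0, 91.6 and 91.8 CPM) were below the sedentary range. The log2 fold change at 24 h was -0.23 ± 0.13 with an unadjusted p of 0.108, and those at 1 week and 2 weeks were -0.15 ± 0.13 and -0.01 ± 0.13.

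Mme encodes neprilysin, which cuts angiotensin I to angiotensin-(1-7) and degrades many other peptides (chr3:63241537-63386030, plus strand). The sedentary libraries held 92.1, 103, 112 and 128 CPM, and the 24 h libraries 83.7, 99.0, 82.9 and 75.7 CPM. At 1 week they held 100.2, 107, 79.8 and 105 CPM, and at 2 weeks 86.9, 110.1, 119 and 142 CPM. All but replicate 2 of the 24 h libraries were below the sedentary range, and the 2 week libraries ran from below it to above it. The log2 fold change was -0.35 ± 0.14 at 24 h (unadjusted p = 0.0193, adjusted p = 0.468, edgeR's quasi-likelihood test), -0.15 ± 0.14 at 1 week and 0.07 ± 0.14 at 2 weeks.

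The difference between 2 weeks and 24 h in Mme had the smallest p of any member in any comparison: log2 fold change 0.42 ± 0.14, 95% interval 0.14 to 0.71, unadjusted p = 0.00599 and adjusted p = 0.396 (edgeR's quasi-likelihood test). Mme was the only 1 of 8 members higher there at an unadjusted p under 0.05, beside 5.29% of all genes, and 0 were lower. Its unadjusted p lay between 0.000648 and 0.0375 when each of the 8 libraries was left out. In the test of any difference among groups, 8.73% of all genes had an unadjusted p under 0.05 and Mme was the only such member. Its adjusted p was 0.512 in edgeR's quasi-likelihood test (unadjusted 0.0308).

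Agtr1a encodes the main AT1 receptor of the kidney (chr13:30336441-30382867, plus strand). It stood at 40.0, 45.1, 35.6 and 42.1 CPM in sedentary libraries and at 42.9, 33.6, 30.3 and 28.4 CPM at 24 h. At 1 week it stood at 33.5, 36.8, 34.7 and 37.5 CPM, and at 2 weeks at 35.6, 42.8, 31.2 and 32.5 CPM. All but 2 of the 12 running libraries, replicate 1 at 24 h and replicate 2 at 2 weeks, were below sedentary replicates 1, 2 and 4, and sedentary replicate 3 lay among the running libraries. The log2 fold changes were -0.27 ± 0.12 at 24 h (unadjusted p = 0.0413), -0.19 ± 0.12 at 1 week and -0.20 ± 0.12 at 2 weeks. With all running mice pooled Agtr1a had a log2 fold change of -0.22 ± 0.10 (unadjusted p = 0.0389, adjusted p = 0.597, edgeR's quasi-likelihood test). Without sedentary replicate 2, its highest library, the pooled value was -0.16 with an unadjusted p of 0.153. The pooled p was also above 0.05 without sedentary replicate 1 or 4, 24 h replicate 3 or 4, 1 week replicate 1, or 2 week replicate 3 or 4.

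Agtr1b, the second AT1 receptor gene (chr3:20314473-20367177, minus strand), was near the detection limit. It had 2 counts in sedentary replicate 2, 6 in 1 week replicate 4, 2 in 2 week replicate 4 and 0 in the other 13 libraries. A count of 0 allows a level of up to 3 counts, 0.0445 to 0.0766 CPM depending on the library (counting error only). The adrenal cortex is known to express Agtr1b, and in the 1 week library with adrenal transcripts Agtr1b had 0 counts. Agtr2, the AT2 receptor gene, had 0 to 4 counts per library and was not tested either.

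Mas1 encodes the receptor for angiotensin-(1-7) (chr17:12841079-12868143, minus strand). Its counts were low, from 28 to 142 per library. The sedentary libraries held 2.48, 2.22, 1.29 and 1.62 CPM, and the 24 h libraries 1.36, 1.31, 0.608 and 1.68 CPM. Values at 1 week were 1.31, 1.15, 1.61 and 1.65 CPM, and at 2 weeks 1.36, 1.42, 0.972 and 1.07 CPM. Sedentary libraries 1 and 2 were above all others, whereas sedentary libraries 3 and 4 lay among the running libraries. The log2 fold change was -0.62 ± 0.26 at 24 h (unadjusted p = 0.0304), -0.41 ± 0.26 at 1 week and -0.66 ± 0.26 at 2 weeks (unadjusted p = 0.0219, adjusted p = 0.604, edgeR's quasi-likelihood test). With all running mice pooled it was -0.56 ± 0.21 (unadjusted p = 0.0141, adjusted p = 0.524), the smallest p of a member in that comparison. Leaving out sedentary replicate 1 brought the pooled value to -0.41 with an unadjusted p of 0.0983, and leaving out sedentary replicate 2 to -0.48 with 0.056. At 2 weeks the unadjusted p was above 0.05 without sedentary replicate 1 or 2 or 2 week replicate 3 or 4, between 0.0536 and 0.0918. Mas1 ranked at the 85.5th percentile for SD of log2 CPM among tested genes.

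Atp6ap2 encodes the (pro)renin receptor, a membrane protein that binds renin and its precursor and is also an accessory subunit of the vacuolar proton pump, the V-ATPase (chrX:12587801-12617049, plus strand). It was the steadiest member, from 60.2 to 80.0 CPM over the 16 libraries, at the 13.7th percentile for SD of log2 CPM. Both extremes lay in the 24 h group. Its log2 fold changes were -0.07 ± 0.09 at 24 h, -0.07 ± 0.09 at 1 week and -0.10 ± 0.09 at 2 weeks, and the 95% intervals reached no further down than -0.30. Of 15 V-ATPase subunit genes, 0 passed an unadjusted p of 0.05 in edgeR against sedentary mice at any time. Of all genes 8.92% did at 24 h, 6.05% at 1 week and 7.26% at 2 weeks. Atp6ap1, the other accessory subunit, had log2 fold changes of -0.01 ± 0.07, -0.03 ± 0.07 and 0.00 ± 0.07.

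**Figure D3:**
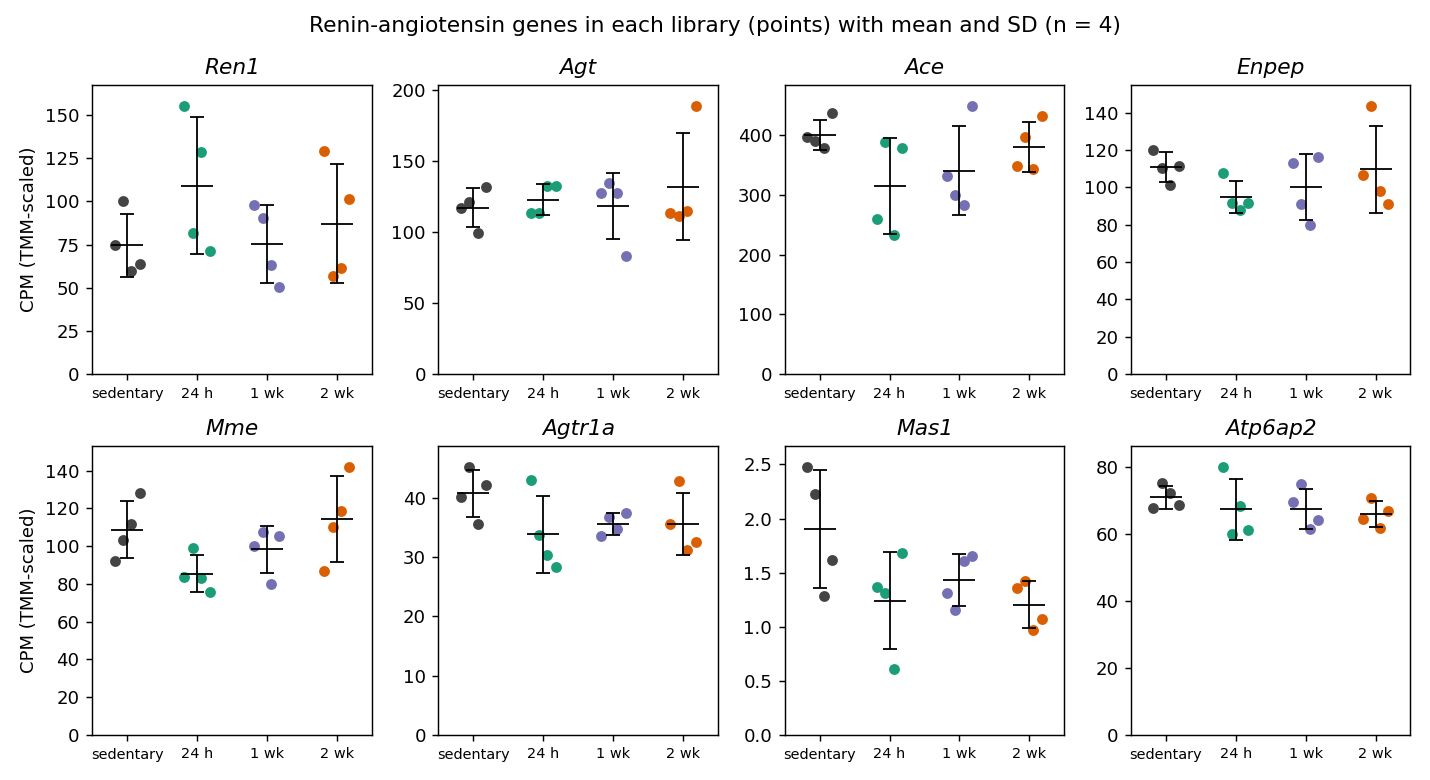
TMM-scaled CPM of the 8 tested members in each library (points, replicates 1 to 4 from left to right), with the group mean and SD (n = 4). Ren1 and Ace each split into a pair and a pair at 24 h (Ren1 155 and 129 against 81.7 and 71.4 CPM), and Agt has 1 library at 189 CPM at 2 weeks.

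A wider list held other genes that make, trim or bind angiotensins. Of 16 listed, 11 were tested, and 0 had an unadjusted p under 0.05 in edgeR against sedentary mice at any time. The shares of all genes were 8.92% at 24 h, 6.05% at 1 week and 7.26% at 2 weeks. Median log2 fold changes of the 11 were 0.01, 0.01 and 0.07 at 24 h, 1 week and 2 weeks. Anpep, aminopeptidase N of the brush border, had log2 fold changes of 0.01 ± 0.11, 0.10 ± 0.11 and 0.13 ± 0.11, and Thop1, an endopeptidase that can also make angiotensin-(1-7), 0.16 ± 0.09, 0.10 ± 0.09 and 0.09 ± 0.09. Per kilobase of exon, Anpep (49.6 CPM per kb) was within the range of the members. Cma1, the mast cell chymase that can make angiotensin II without Ace, had 0 to 3 counts per library.

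Downstream of the AT1 receptor, 14 signalling genes were tested. Nox4, a kidney NADPH oxidase that makes hydrogen peroxide, was the only 1 of the 14 lower at an unadjusted p under 0.05 at 24 h and again at 1 week. Of all genes 4.43% were lower at 24 h and 3.72% at 1 week, and 7.21% and 4.22% did not overlap with sedentary libraries. Its sedentary libraries held 181 to 221 CPM and the 24 h libraries 96.1 to 165 CPM, with no overlap. The log2 fold change was -0.70 ± 0.18 at 24 h (unadjusted p = 0.000882, adjusted p = 0.212, edgeR's quasi-likelihood test) and -0.45 ± 0.18 at 1 week, also without overlap (124.5 to 169.9 CPM). At 2 weeks Nox4 ranged from 125.1 to 258 CPM across the sedentary range. Rgs2, which dampens Gq signalling of receptors such as AT1, was the only 1 of the 14 higher then (0.34 ± 0.15, unadjusted p = 0.0368, edgeR), beside 4.02% of all genes.

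How the members varied together was examined over the 16 libraries in 28 pairs of tested members, on log2 CPM, with a permutation test of 100000 resamples. After Benjamini-Hochberg adjustment over the 28 pairs, 0 passed 0.05, and 6 had an unadjusted p under 0.05. Points of a pair share their library, depth and tissue composition. Agtr1a and Enpep gave the highest Pearson r, 0.658 (permutation p = 0.00516, adjusted 0.104; Spearman's rho 0.629, permutation p = 0.0105, adjusted 0.151). It was 0.676 without the 2 libraries farthest from the median of Agtr1a, 0.618 on deviations from group means, and positive within each of the 4 groups. Agtr1a and Atp6ap2 followed with r = 0.643 (permutation p = 0.00741, adjusted 0.104; rho 0.626, p = 0.0108, adjusted 0.151), 0.521 without the 2 farthest libraries and 0.608 on deviations.

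Ren1 and Ace had the lowest r of the 28 pairs, -0.567 (permutation p = 0.0224, adjusted 0.126; rho -0.447, permutation p = 0.0853, adjusted 0.265). It was -0.48 without the 2 libraries farthest from the median of Ren1, and -0.212 without the 2 farthest from the median of Ace, 24 h libraries 1 and 3. Within groups it was -0.909 at 24 h, -0.57 at 1 week, -0.201 in sedentary mice and 0.0106 at 2 weeks, over 4 libraries each. Ace and Mme, 2 brush border peptidases, had r = 0.587 (permutation p = 0.0167, adjusted 0.126; rho 0.538, permutation p = 0.0333, adjusted 0.186), with 0.466 without the 2 farthest libraries, 0.398 on deviations from group means and a positive sign in all 4 groups.

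**Figure D4:**
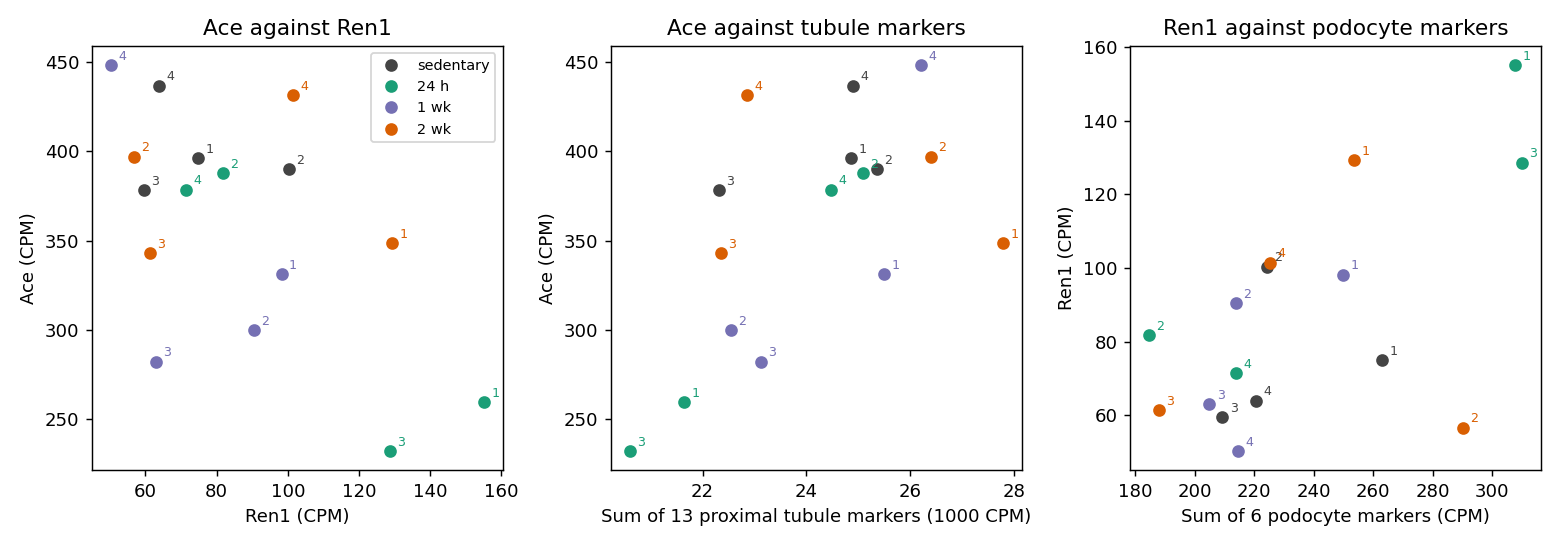
Each point is a library, coloured by group and numbered by replicate: Ace against Ren1, Ace against the sum of 13 proximal tubule markers, and Ren1 against the sum of 6 podocyte markers (all in CPM, tubule sums in 1000 CPM). The 24 h libraries 1 and 3 lie apart in all 3 panels, with Ace at 259 and 232 CPM and Ren1 at 155 and 129 CPM.

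For each tested member the most similar genes were sought among 12080 expressed genes by Pearson r of log2 CPM over the 16 libraries. These are the top 3 of many and carry no test. Ren1 was most like Ier3 (r = 0.904), Ppp2cb (0.85) and Rtn2 (0.843). Agt was most like Serpina1f (0.866), Stc2 (0.823) and Bmp1 (0.816). Ace was most like Cmah (0.901), Mep1a (0.9), a subunit gene of the metalloprotease meprin, and Asah2 (0.884). Enpep was most like Magi2 (0.933), Fam149a (0.927) and Dab2 (0.922). Mme was most like Plcb4 (0.869), Tm9sf2 (0.864) and Abcc9 (0.859). Agtr1a was most like Mfsd1 (0.88), Agmo (0.843) and Slc31a1 (0.833), Mas1 like Arsg (0.868), Mcm7 (0.823) and Txnrd3 (0.797), and Atp6ap2 like Rtn4 (0.849), Rab8b (0.835) and Dhrs7 (0.834).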

How the data were processed

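The authors deposited 1 table of whole-number read counts per Ensembl gene. The submitters' processing notes name FastQC 0.10.1, HTSeq 0.10.0 (read counting) and GRCm38 (mm10), and no source used here gives the aligner, annotation release or strand setting. RNA was poly(A)-selected and, per the labels' protocols, made into TruSeq Stranded mRNA libraries. Of 24 count columns 16 matched a sample and 8 were not used. GENCODE M21 gave symbols for 52133 of 55414 identifiers (99.4% of counts). Groups and replicate numbers came from the titles. All 16 libraries entered 1 edgeR 4.0.16 quasi-likelihood fit (robust, TMM, filterByExpr, R 4.3.3), with Benjamini-Hochberg adjustment over 16126 genes and a threshold of 0.05, and the script was tested on simulated data. Standard errors are the fold change over the root of F. DESeq2 1.42.0, limma 3.58.1 voom, other filters and scalings, a replicate block, left-out libraries and, for levels per kb, the longest transcript were alternatives. Members and gene lists were chosen with earlier results of these data known. Every member is named, other listed genes at an unadjusted p under 0.05 against sedentary mice (at most 4 per list and time, own-pathway lists in full and tissue markers as counts), and Agtr2, Akr1b7, Cma1, Thop1, Anpep and Atp6ap1 in any case; 1 other gene of this rule is not reported here. Libraries of 1 group differed beyond sampling noise in every pair, but not equally. The ratio of chi-squared to its degrees of freedom was lowest for sedentary replicates 1 and 2 (7.88), and ran from 19.7 to 120 for the other pairs. Why these sedentary libraries were closest was not tested.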

Additional observations from a re-analysis of the deposited data

Results flagged for a closer look

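In groups of 4 libraries a value stood apart when its gap to the nearest other library took up more of the group's range than Dixon's 95% critical value for 4 samples. Of 32 groups examined (8 members in 4 groups), 2 held such a library, where chance flags about 1 in 20. Both were Agt: replicate 4 of the 1 week group, with the lowest level (83.5 CPM, beside 128, 128 and 135), and replicate 4 of the 2 week group, with the highest (189 CPM, beside 111, 114 and 115).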

How the results depend on the processing

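No member was called in any comparison under any alternative. Of 952 member values recomputed (56 member comparisons), 902 kept their direction and side of the threshold and 50 turned direction, all in differences that were at most 0.22 on the log2 scale and uncalled. Replicate numbers were not used as pairs in the main fit: 8 of 24 same-numbered pairs had deviations correlated above 0.1 (mean r 0.0566, against -0.0188 for other pairs). All 8 carried number 1 or 3, and the highest r was 0.375, between replicates 3 of the sedentary and 2 week groups. Pairs of unlike number reached 0.393. Whether libraries of number 1 or 3 share anything beyond the number was not tested. With a replicate block Ren1 at 1 week against sedentary mice was -0.0209, and calls over all genes became 5 at 2 weeks against sedentary, 11 at 2 weeks against 24 h and 5 among the 4 groups.

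Genes called against sedentary mice at 24 h numbered 86 with DESeq2, 49 with voom, 9 without a filter and 28 with only the 2 groups. At 1 week they were 15 with DESeq2 and 6 with voom. At 2 weeks they were 34 with DESeq2, 6 with voom, 5 without a filter, 2 with only the 2 groups and 3 without 24 h and 1 week replicates 3 (added after the data were seen). With all running mice they were 26 with DESeq2 and 45 with voom. DESeq2 called 59 for 1 week against 24 h, 4 for 2 weeks against 1 week (voom 1) and 39 for 2 weeks against 24 h (8 without a filter, 4 at 1 CPM or more in 4 libraries). Among the 4 groups calls were 163 with DESeq2, 33 with voom, 10 without a filter and 1 without both replicates 3. Leaving out each library gave 0 to 1 calls at 1 week and 0 to 8 at 2 weeks against sedentary, 0 to 2 for 1 week against 24 h, 0 to 7 for 2 weeks against 24 h, 0 to 1 with all running mice and 0 to 5 among the 4 groups. The cause was not tested.

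For 1 week against 24 h, voom gave 0.0458 for Agt and -0.0515 for Ace. Without both replicates 3, Mas1 was -0.0845 there and Agt was -0.0226 at 1 week against sedentary. Atp6ap2 was -0.0039 for 1 week against 24 h without a filter and -0.00048 with only the 2 groups, and 0.0084 with voom for 2 weeks against 24 h. Agtr1a was 0.0020 for 2 weeks against 1 week without a filter. Leaving out each library moved the following values across 0. Against sedentary mice they ran at 24 h from -0.00089 to 0.13 for Agt. At 1 week they ran from -0.137 to 0.195 for Ren1 and -0.0564 to 0.152 for Agt. At 2 weeks they ran from -0.0304 to 0.394 for Ren1, -0.051 to 0.245 for Agt, -0.171 to 0.0662 for Enpep and -0.0456 to 0.185 for Mme. For 1 week against 24 h they ran from -0.122 to 0.0817 for Agt, -0.0458 to 0.231 for Ace, -0.00047 to 0.211 for Agtr1a, -0.0226 to 0.382 for Mas1 and -0.0501 to 0.0961 for Atp6ap2. For 2 weeks against 1 week they ran from -0.0464 to 0.359 for Ren1, -0.0634 to 0.228 for Agt, -0.111 to 0.0544 for Agtr1a, -0.0774 to 0.0186 for Atp6ap2 and -0.0272 to 0.212 for Enpep. For 2 weeks against 24 h they ran from -0.117 to 0.176 for Agt, -0.035 to 0.209 for Agtr1a, -0.265 to 0.133 for Mas1 and -0.082 to 0.0609 for Atp6ap2. Counts of Agtr1b, Agtr2 and Cma1 were too low for a test, and those of Mas1, which was tested, were at most 142 per library.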
